A study of Mus musculus with 18 samples.

Results

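The difference between gestational day 17 (GD17) and gestational day 18 (GD18) was described in the lungs of vehicle-treated XX mouse fetuses, over the last days before birth. The arrays were chosen by their sample titles: 3 pools of females at GD17 (17 f) and 3 at GD18 (18 f), which are 6 of the 18 arrays of the series. All fetuses were of the BALB/c strain, and each array carried lung RNA pooled from 3 fetuses of 1 sex and treatment taken from distinct litters. The dams of both groups had received a daily subcutaneous injection of the vehicle alone, saline with gelatin and dimethylsulfoxide, from GD10 to the day before harvest, so the controls of the series were themselves injected. Vehicle-treated males of the same days (17 m and 18 m, 3 pools each) are set beside the females below, and the flutamide-treated males enter only the estimate of the spread. Since each pool mixes 3 fetuses, the spread between pools is smaller than that between fetuses.

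These days span the passage of the mouse lung from the canalicular to the saccular stage. The distal epithelium then divides into flat alveolar type I cells, across which gas will pass, and cuboidal type II cells, which store surfactant in lamellar bodies and secrete it so that the air spaces do not collapse at the first breath. The airway epithelium gains club and ciliated cells, liquid secretion gives way to sodium and water uptake, the septa thin, and proliferation slows, with glucocorticoid of the fetus among the known drivers.

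Values are log2 intensities of probe sets on the array, a difference is the mean of GD18 minus the mean of GD17 on that scale with its standard error (SE), and a gene is represented by its probe set of highest mean over all arrays. A gene is called higher or lower where its Benjamini-Hochberg adjusted p, from a limma model over all 45037 probe sets, is under 0.05. Xist, the RNA of the inactive X chromosome, was at 11.33, 11.56 and 11.46 in the female pools of GD17 and at 12.51, 12.33 and 12.41 in those of GD18. In the vehicle male pools it lay between 7.8 and 8.7. The Y-linked Eif2s3y lay between 3.09 and 3.64 in the 6 female pools, against 7.97 to 8.84 in the vehicle male pools. The lung label was borne out by its defining markers: Sftpc, the surfactant protein of type II cells, lay between 13.95 and 14.65 in all 6 pools and Ager, a receptor of type I cells, between 10.95 and 13.37.

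The GD17 pools were not alike. Pools 2 and 3 of 17 f were high in genes of organs other than lung, with a mean over 23 exocrine pancreas genes of 8.57 and 8.52, against 5.66 in pool 1 and 5.54 to 5.60 in the GD18 pools. Pnliprp1, a pancreatic lipase-related gene, was at 12.28 and 12.15 in these pools and at 5.49 in pool 1, and Cym, the milk-clotting enzyme of the infant stomach, at 12.51 and 12.47 against 8.18. Over 34 squamous epithelium genes the means were 7.75 and 7.72 against 6.26, and over 20 liver genes 9.38 and 9.30 against 7.83, with 6.27 to 7.25 at GD18. Male pool 3 of GD17 was high in the same pancreas (8.04) and liver (9.31) genes. In the other direction, the 23 genes of striated and cardiac muscle had means of 8.66, 9.26 and 9.37 at GD17 and of 9.59, 10.63 and 8.91 at GD18, where pool 2 stood highest. Genes of the pancreas, islet, stomach and squamous lists (87 genes), and any gene over 1 log2 unit higher in both 17 f 2 and 17 f 3 than in the other 4 female pools (148 genes, 34 of them on the lists), were set aside. Of these 201 genes, 89 were called lower and 4 higher at GD18, and the counts below are given with and without them.

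**Figure D1:**
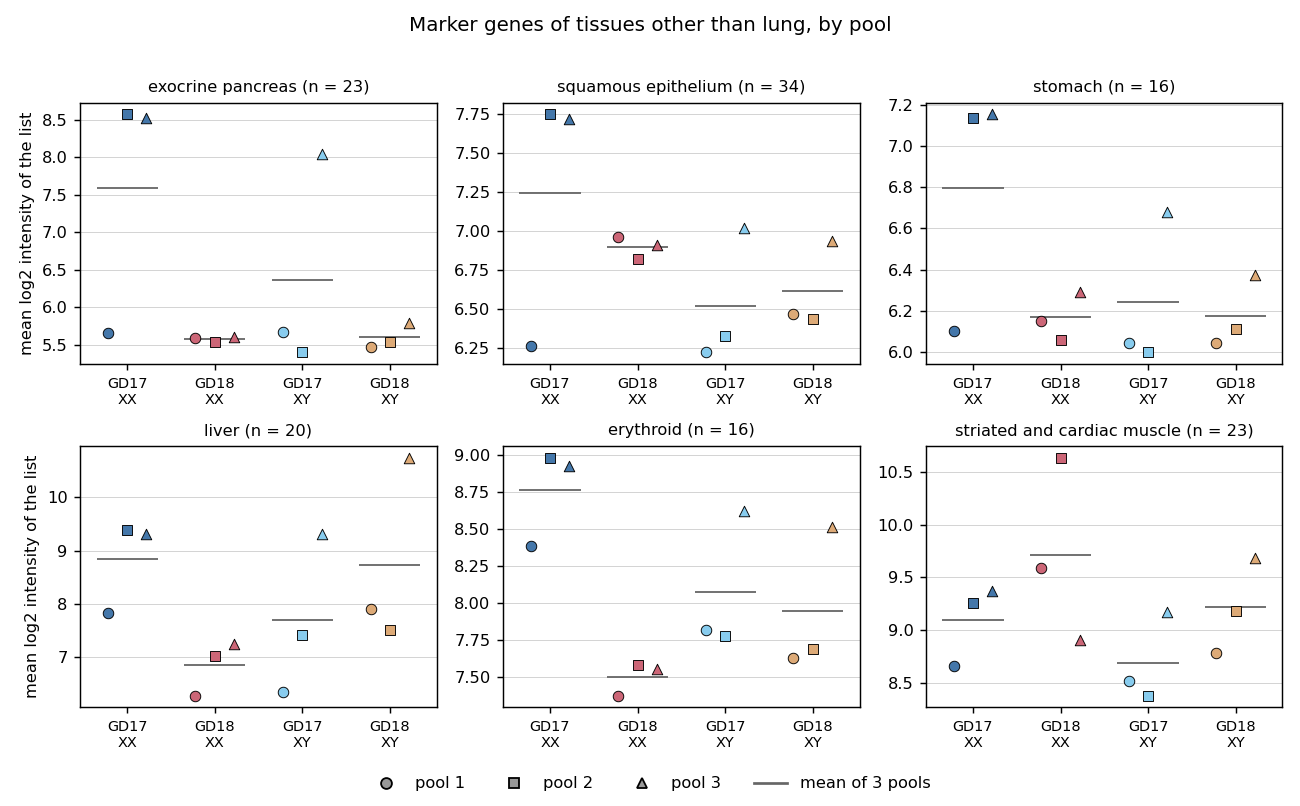
Mean log2 intensity over the measured genes of 6 marker lists (vertical axis) in each of the 12 vehicle pools, grouped by day and sex, with the symbol giving the pool number and the grey line the mean of 3 pools. Pools 2 and 3 of GD17 XX and pool 3 of GD17 XY stand above the other GD17 pools for pancreas, at 8.57, 8.52 and 8.04 against 5.40 to 5.67, and pool 3 of GD18 XY is highest for liver, at 10.74.

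From GD17 to GD18 most listed genes of surfactant, of the alveolar and airway epithelium, of matrix and of vessels rose. Most of those listed for DNA replication, mitosis and cholesterol synthesis fell. The lists and their members were chosen with earlier results of these data known, so their counts describe the members and are no test of a cell type or pathway. Of 45037 probe sets, 33.6% were called, 7423 higher and 7689 lower at GD18. Of 18193 genes, 3121 (17.2%) were called higher and 4089 (22.5%) lower, or 3117 and 4000 without the genes set aside. The median difference over all genes was -0.01, and the median size of a called difference was 0.47. In 24.4% of genes all 3 pools of GD18 lay above all 3 of GD17, and in 29.1% all lay below. Among called genes, 381 rose and 370 fell by at least 1 on the log2 scale, and without the genes set aside 381 rose and 295 fell. At a size of at least 2, 44 rose and 36 fell, and 5 of these falls remained after the genes set aside were removed. The rule takes genes that are high at GD17, so the smaller counts of falls follow largely from the rule itself. No like rule was applied to the rises. With 17 f 2 and 17 f 3 left out together, so that a single GD17 pool remained and its spread was taken from the other groups, 2016 genes were called higher and 2517 lower, of which 1944 and 2442 were among the calls above. In whole lung, a larger share of cells of a type and more RNA per cell cannot be told apart.

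The 15 largest rises included several secreted products of the airway and alveolar epithelium. The club cell secretoglobin gene Scgb1a1 measured 7.86, 6.64 and 6.63 in the GD17 pools and 12.02, 11.85 and 11.73 in the GD18 pools, a difference of 4.82 (SE 0.37, 28.2-fold, adjusted p = 1.4e-07). Retnla, a resistin-like secreted protein, rose from 9.05, 7.69 and 7.79 to 11.98, 11.79 and 12.11. Both were highest at GD17 in pool 1, the pool low in pancreas genes, and in neither did the days overlap. Scgb3a1, another secretoglobin, was at 8.36, 6.85 and 6.97 at GD17 and at 10.22, 10.57 and 10.25 at GD18. Chia1, an acidic chitinase of lung and stomach, rose by 3.72 (SE 0.28, adjusted p = 1.2e-07), Chil1, a chitinase-like protein, by 2.92 (SE 0.30, adjusted p = 1.4e-06) and Cxcl15, the chemokine lungkine, by 2.91 (SE 0.22, adjusted p = 1.2e-07). Between and after these in size came Gsap, which encodes a gamma-secretase activating protein (3.21), Akr1c14, a hydroxysteroid dehydrogenase gene (3.16), Dpep1, a membrane dipeptidase gene (2.98), Inmt, an indole N-methyltransferase gene (2.78), Msln, which encodes mesothelin (2.74), and Traf1, a signalling adaptor gene (2.73), with Sftpd, Sftpa1 and Slc34a2 described next. None of the 15 overlapped between days, since the rule that picked them required it.

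**Figure D2:**
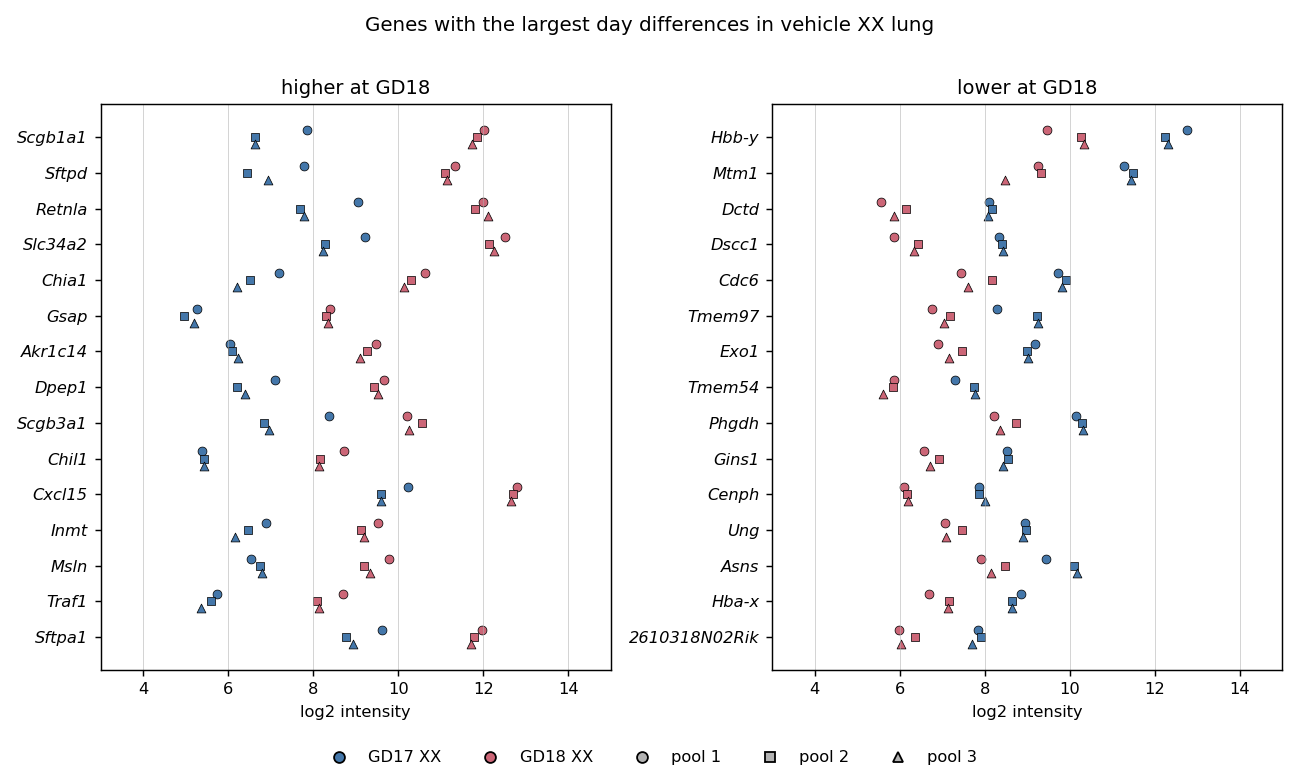
Log2 intensity (horizontal axis) of the 15 genes with the largest called rises and the 15 with the largest called falls from GD17 to GD18 in vehicle XX lung, without the genes set aside. Each point is 1 pool, blue for GD17 and red for GD18, with the symbol giving the pool number. Scgb1a1 spans 6.63 to 12.02, and for several secreted products GD17 pool 1 lies to the right of pools 2 and 3.

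Surfactant is a film of phospholipid with 4 proteins, and all 4 of their genes rose. Sftpd and Sftpa1 encode the collectins, which bind microbes in the air space. Sftpd was at 7.78, 6.45 and 6.94 in the GD17 pools and at 11.32, 11.11 and 11.14 in the GD18 pools (difference 4.13, SE 0.28, 17.5-fold, adjusted p = 7.0e-08). Sftpa1 rose from 9.62, 8.78 and 8.93 to 11.96, 11.79 and 11.70 (2.71, SE 0.24, adjusted p = 4.7e-07). Sftpb, whose product spreads the lipid film and which is needed to form lamellar bodies, rose from 10.09, 9.75 and 9.84 to 11.94, 11.74 and 11.73 (1.91, SE 0.15, adjusted p = 1.4e-07). Sftpc was the exception in size. It stood at 14.05, 13.95 and 13.95 at GD17 and at 14.65, 14.56 and 14.57 at GD18 (0.61, SE 0.07, adjusted p = 7.5e-06), close to 14.88, the highest value of any probe set on any of the 18 arrays, and a compression of the scale there was not tested. A second, dimmer Sftpc probe set near 6.34 was not called (adjusted p = 0.98). GD17 pool 1 was the highest of its day in all 4 genes. All 4 were still called without 17 f 2 and 17 f 3.

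Genes of the type II cell rose with them. Of 24 measured genes of this cell and its lamellar body, 21 were called higher, none lower and 3 neither, with a median difference of 1.46 against -0.01 over all genes. Slc34a2, the phosphate transporter that recycles phosphate from surfactant lipid, was at 9.22, 8.27 and 8.22 at GD17 and at 12.52, 12.14 and 12.25 at GD18 (3.73, SE 0.32, adjusted p = 2.8e-07). Abca3, the pump that loads lipid into lamellar bodies, rose from 9.11, 8.96 and 9.09 to 10.79, 10.58 and 10.68 (1.63, SE 0.12, adjusted p = 8.2e-08) and all 3 of its probe sets were called higher. Lyz1, a lysozyme gene, rose by 2.35 (SE 0.18, adjusted p = 1.4e-07), and Il33, the alarmin interleukin, by 1.5 (SE 0.13, adjusted p = 3.1e-07). The members not called were Pgap1 (-0.10), Cd74 (0.36) and the FGF-responsive factor Etv5 (0.06), which with other genes named outside the fixed rule are listed under processing.

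Type I cell genes rose to a like extent. Of 23 measured, 19 were called higher, 1 lower and 3 neither (median 1.47). Aqp5, the water channel of the apical membrane, was at 6.30, 5.88 and 5.88 at GD17 and at 8.72, 8.52 and 8.75 at GD18 (2.64, SE 0.17, adjusted p = 6.7e-08). Ager rose from 11.35, 10.95 and 11.08 to 13.37, 13.19 and 13.27 (2.15, SE 0.16, adjusted p = 1.4e-07), and Clic5, an intracellular chloride channel gene, by 2.34 (SE 0.17, adjusted p = 1.0e-07). The groups did not overlap in these genes, which were named for their small p. Among all genes, 24.4% had every GD18 pool above every GD17 pool. The member called lower was Igfbp2, an insulin-like growth factor binding protein, at 9.92, 10.11 and 10.13 at GD17 and 8.50, 8.63 and 8.63 at GD18 (-1.47, SE 0.13, adjusted p = 5.2e-07). Pdpn, the type I membrane protein podoplanin, was at 10.09 to 10.20 on the first day and at 10.19 or above on the second (0.06, SE 0.09, adjusted p = 0.65). Rtkn2 (0.11) and Cyp2b10 (0.10) were not called either.

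In the airway epithelium, 12 of 16 club cell genes were called higher and 2 lower, and 20 of 21 ciliated cell genes higher and none lower. Among club cell genes, Cyp2f2, a cytochrome P450 of these cells, rose by 1.69 (SE 0.12, adjusted p = 1.0e-07), Cbr2, a carbonyl reductase gene, by 2.41 (SE 0.18, adjusted p = 1.2e-07) and Scgb3a2 by 1.21 (SE 0.12, adjusted p = 7.9e-07). The 2 called lower were Bpifb1 (-1.75), which encodes a secreted protein of the airway and was among the genes set aside, and Cckar (-0.38), a cholecystokinin receptor gene. With 17 f 2 and 17 f 3 left out, 13 club cell genes were called higher and none lower. Among ciliated cell genes, Tmem212 was at 5.59, 5.35 and 5.47 at GD17 and at 7.84, 7.86 and 7.57 at GD18 (2.29, SE 0.12, adjusted p = 3.5e-08), and Rsph4a, a part of the radial spoke that regulates ciliary beating, at 4.86, 5.05 and 4.76 and then at 6.86, 6.70 and 6.69 (1.86, SE 0.13, adjusted p = 7.0e-08). Foxj1, the master transcription factor of motile cilia, moved by 0.66 (SE 0.13, adjusted p = 0.001). Without the same 2 pools, 15 ciliated cell genes were called.

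Transcription factors of the lung epithelium moved less than the genes of the finished cells. Of 28 measured, 14 were called higher, 2 lower and 12 neither (median 0.24). The leading ones were Hopx (1.63, SE 0.13), a homeodomain protein of type I cells, Cebpd (1.4, SE 0.14) and Epas1 (1.17, SE 0.12), a hypoxia-inducible factor needed for type II cell maturation, all with an adjusted p of 1.5e-06 or less. The lineage factor Nkx2-1 was at 6.27, 6.23 and 6.19 and then at 6.49, 6.33 and 6.50 (0.21, SE 0.16, adjusted p = 0.38), and Foxa2 differed by -0.14. The Nkx2-1 values lay near the median of all probe sets, 6.34 to 6.40 in the female pools, so a change in this gene may be missed. Sox2, of the proximal airway, and Sox9, of the distal tip, were the 2 called lower (-0.60 and -0.54), and Sox2 lost its call (-0.42) without 17 f 2 and 17 f 3. Among 17 genes of the distal tip progenitor, 8 were called lower and 4 higher, against 22.5% and 17.2% of all genes. Hmga2, a chromatin protein of immature cells, fell from 10.37, 10.47 and 10.54 to 9.27, 9.36 and 9.44 (-1.10, SE 0.09, adjusted p = 1.6e-07), and Mycn by 0.80. The rises in that list were led by Nkd1, a feedback inhibitor of Wnt signalling (1.31), and Cpm, a carboxypeptidase of the cell surface (1.34).

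Genes that move salt and water rose in 17 of 26 cases and fell in 2 (median 0.53). Sodium enters the epithelium through the channel ENaC, and its 3 subunits rose by 1.91 for Scnn1a (SE 0.17, adjusted p = 4.6e-07), 1.55 for Scnn1g (SE 0.15, adjusted p = 1.1e-06) and 0.67 for Scnn1b (SE 0.15, adjusted p = 0.0019). Scnn1b was not called without 17 f 2 and 17 f 3 (0.60). Scnn1a was at 7.28, 6.81 and 6.97 at GD17 and at 8.87, 8.68 and 9.26 at GD18. Atp1b1, a subunit of the sodium pump, rose by 1.28 (SE 0.11, adjusted p = 2.4e-07). Aqp1, the water channel of lung endothelium, rose from 9.29, 9.20 and 9.21 to 11.07, 10.83 and 10.86. Nedd4l, the ubiquitin ligase that removes ENaC from the membrane, also rose, by 1.55 (SE 0.12, adjusted p = 1.4e-07), in all 6 of its probe sets. Among the chloride channels of liquid secretion, Cftr rose by 0.55 (SE 0.12, adjusted p = 0.0014). Of 19 tight junction genes, 10 rose and 4 fell, or 9 and 1 without 17 f 2 and 17 f 3. Among all genes 17.2% were called higher and 22.5% lower, so the share of tight junction genes called lower lay near that of all genes. The smallest p in this list was that of Cldn6, a claudin of embryonic epithelium, which fell from 10.20, 10.07 and 10.15 to 8.32, 8.65 and 8.47 (-1.66, SE 0.15, adjusted p = 5.2e-07).

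**Figure D3:**
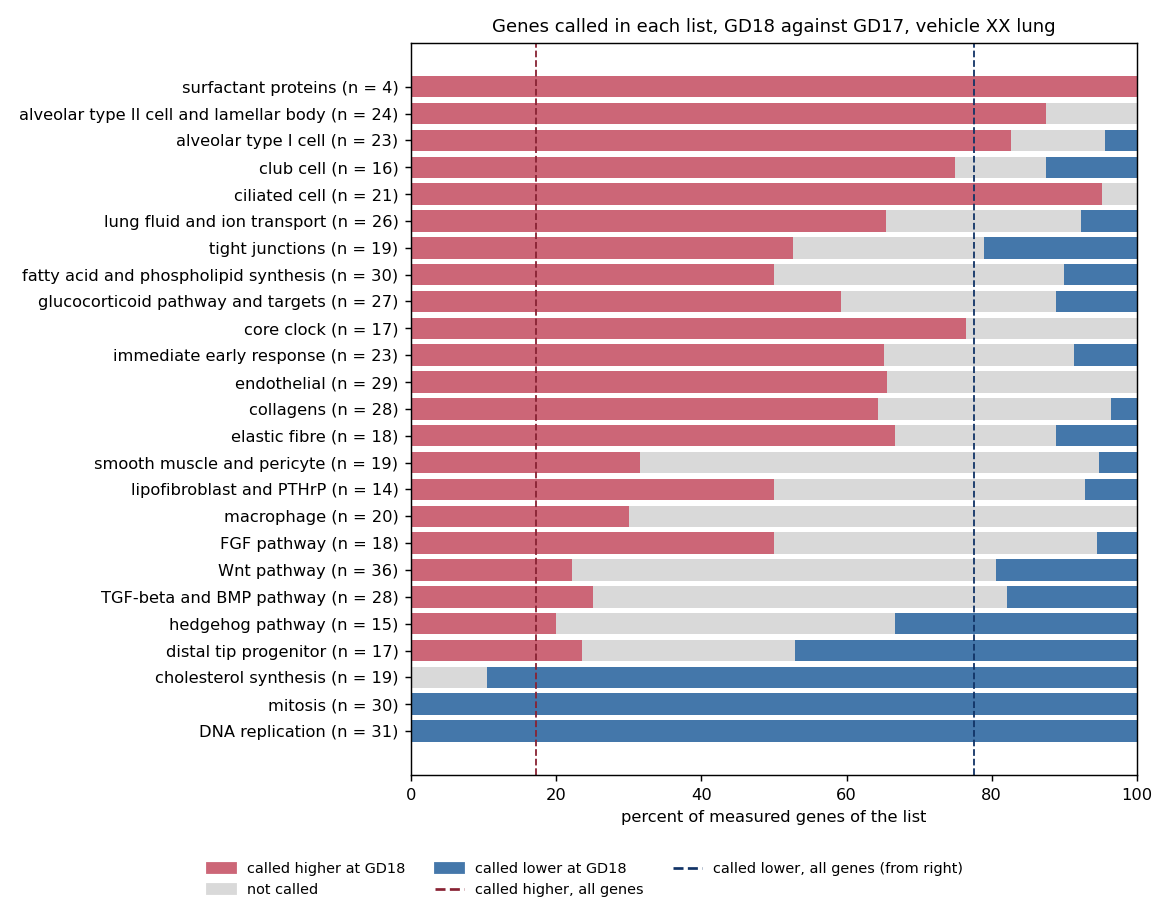
Share of the measured genes of 25 lists (horizontal axis, percent) called higher at GD18 (red), called lower (blue) or not called (grey) in vehicle XX lung, with the number of measured genes after each name. The dashed lines mark the shares among all genes, 17.2% called higher and, measured from the right edge, 22.5% called lower. All genes of the replication and mitosis lists are blue, and all 4 surfactant protein genes are red.

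Lipid synthesis did not move as 1 block. Of 30 genes of fatty acid and phospholipid synthesis, 15 were called higher and 3 lower (median 0.24). Acss2, which makes acetyl-CoA from acetate, rose by 1.45 (SE 0.12, adjusted p = 3.1e-07), Cds1, which makes CDP-diacylglycerol for phosphatidylglycerol and phosphatidylinositol, by 1.35 (SE 0.14, adjusted p = 2.3e-06) and Cds2 by 0.59. Scd1, a desaturase gene, went from 6.71, 7.19 and 7.24 to 9.58, 9.27 and 8.90, and Fasn, the fatty acid synthase, rose by 0.81. The genes called lower were Elovl6, which elongates palmitate (-1.22, SE 0.13, adjusted p = 2.2e-06), and the desaturases Fads2 (-0.80) and Fads1 (-0.42), the last of which lost its call without 17 f 2 and 17 f 3. In contrast, 17 of 19 genes of cholesterol synthesis were called lower and none higher (median -0.59). Cyp51, the lanosterol demethylase, fell from 8.42, 8.56 and 8.66 to 7.39, 7.62 and 7.28 (-1.12, SE 0.10, adjusted p = 5.8e-07). Dhcr7, which makes the last step to cholesterol, fell from 7.99, 8.23 and 8.21 to 6.84, 7.15 and 6.99, and Idi1, an isomerase of the isoprene units, by 0.81. GD17 pool 1 was the lowest of its day in these 3 genes. Of the 19, 11 were called lower without 17 f 2 and 17 f 3. Srebf2, which encodes the main regulator of the pathway, was not called (0.03, SE 0.08, adjusted p = 0.81).

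The machinery of DNA replication fell as a whole: 31 of 31 measured genes were called lower, with a median difference of -1.17. Gins1, a part of the replicative helicase, was at 8.53, 8.54 and 8.44 at GD17 and at 6.57, 6.92 and 6.71 at GD18 (-1.77, SE 0.11, adjusted p = 6.7e-08). Cdc6, which loads the helicase onto origins, was at 9.72, 9.90 and 9.81 and then at 7.43, 8.16 and 7.61 (-2.07, SE 0.16, adjusted p = 1.7e-07), and Mcm3, a helicase subunit, at 10.45, 10.51 and 10.60 and then at 8.91, 9.29 and 9.09 (-1.42, SE 0.11, adjusted p = 1.2e-07). Of 30 mitosis genes, 30 were called lower (median -0.95), among them cyclin A2 (Ccna2, -1.08, SE 0.08), the condensin subunit Ncapg (-1.31, SE 0.10) and the checkpoint kinase Bub1 (-1.36, SE 0.13), all with an adjusted p of 1.1e-06 or less. Mean levels over the replication list were 10.05, 10.05 and 10.04 at GD17, where the 3 pools hardly differed, and 8.68, 9.01 and 8.84 at GD18, where pool 2 was highest. Without 17 f 2 and 17 f 3, 29 replication and 30 mitosis genes were called lower. Several of the 15 largest falls belong to the same processes or to nucleotide supply: Dscc1, of the cohesion complex (-2.18), the nuclease Exo1 (-1.89), the kinetochore gene Cenph (-1.75), the uracil glycosylase Ung (-1.74) and the deoxycytidylate deaminase Dctd (-2.26, from 8.11, 8.17 and 8.08 to 5.55, 6.16 and 5.86). Among genes named as inhibitors of the cyclin-dependent kinases, a list of 8 added after the values were seen, 2 were called higher, 3 lower and 3 neither (median -0.03). Over all genes 17.2% were called higher and 22.5% lower. Cdkn3 (-1.17), Cdkn1c (-0.51) and Cdkn2c (-0.32) fell, Cdkn1b rose by 0.39, and Cdkn2b rose from 6.73, 6.74 and 6.70 to 9.09, 8.89 and 9.05 (2.29, SE 0.23, adjusted p = 1.1e-06), while Cdkn1a differed by 0.27 (adjusted p = 0.19).

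The other leading falls were of different kinds. Embryonic globins, made by the first red cells of the yolk sac, fell by 2.42 for Hbb-y (12.77, 12.24 and 12.32 to 9.46, 10.27 and 10.33, SE 0.39, adjusted p = 1.2e-04) and by 1.71 for Hba-x. Of 16 erythroid genes 14 were called lower, but 4 of the 16 were among those set aside, the list means were 8.39, 8.98 and 8.93 at GD17, and without 17 f 2 and 17 f 3 only 4 were called. Hbb-y and Hba-x were highest in 17 f 1. Mtm1, a phosphoinositide phosphatase gene, fell by 2.39 (SE 0.29, adjusted p = 8.0e-06), though 1 of its 3 probe sets was called higher. Phgdh and Asns, which make serine and asparagine, also fell (-1.81, SE 0.16, adjusted p = 3.9e-07, and -1.73, SE 0.26, adjusted p = 6.0e-05). Tmem97, which encodes a sterol-binding membrane protein, fell from 8.30, 9.23 and 9.25 to 6.76, 7.18 and 7.04 (-1.93), and the membrane protein gene Tmem54 fell by 1.84. 2610318N02Rik, a gene known here by its clone name, fell from 7.83, 7.91 and 7.70 to 5.98, 6.36 and 6.04. In Asns and Tmem97, as in the cholesterol genes, 17 f 1 was the lowest GD17 pool.

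The promoters of 4 lists are shown because these genes moved together and the stretch before the start site is where shared control elements are known to lie. Of 18193 genes, 14452 had a promoter in the RefSeq-based table (GRCm38.p6), 250 bases before to 50 after the start of transcription. On either strand, 13 short motifs were searched, which were picked from textbook knowledge with the list results known. They were counted in these 4 lists and in others, and only some of the counts are given. The E2F motif TTTNGCGC was in 11 of 26 replication genes and in 2.32% of all genes, and the CHR motif TTTGAA, known from late cell cycle promoters, in 22 of 26 mitosis genes and 15.7% of all. The CCAAT motif was in 15 of 15 cholesterol genes and 42.0% of all, the sterol motif TCACNCCAC in 1 of 15 and 1.46%, and GTTGCC, part of the site of the RFX factors of ciliated cells, in 10 of 17 ciliated cell genes and 14.7%. CCAAT was also in 20 of 26 mitosis and 17 of 26 replication genes. The GC box GGGCGG was in 14 of 15 cholesterol, 23 of 26 mitosis, 18 of 26 replication and 7 of 17 ciliated cell genes, and in 57.3% of all. The motifs were counted one by one, and the 3 E2F matches of Mcm6 include a pair that overlap on opposite strands. For each list 2 members with the motif in the last 120 bases before the start are printed. They are those of smallest p among genes with a single promoter entry, with genes of 1 chromosome also left out. Members of smaller p may therefore be missing. The sequences run 5′ to 3′ on the strand of the gene, with the motif in capitals, also where it reads on the opposite strand.
Mcm6, helicase subunit, chr1:128359706-128359825, minus strand, E2F: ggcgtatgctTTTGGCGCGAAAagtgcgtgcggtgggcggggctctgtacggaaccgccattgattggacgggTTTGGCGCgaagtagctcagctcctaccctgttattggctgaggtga
Dtl, adaptor of a ubiquitin ligase, chr1:191575545-191575664, minus strand, E2F: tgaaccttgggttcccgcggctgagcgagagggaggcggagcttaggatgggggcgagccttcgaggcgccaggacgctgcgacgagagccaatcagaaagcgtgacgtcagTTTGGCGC
Ncapg, condensin subunit, chr5:45669805-45669924, plus strand, CHR: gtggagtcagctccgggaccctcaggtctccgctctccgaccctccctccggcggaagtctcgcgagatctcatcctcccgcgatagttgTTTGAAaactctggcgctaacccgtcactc
Kif11, mitotic kinesin, chr19:37376262-37376381, plus strand, CHR: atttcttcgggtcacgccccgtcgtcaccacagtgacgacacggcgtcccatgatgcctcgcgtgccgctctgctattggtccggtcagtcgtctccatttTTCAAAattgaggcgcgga
Cyp51, lanosterol demethylase, chr5:4104698-4104817, minus strand, CCAAT: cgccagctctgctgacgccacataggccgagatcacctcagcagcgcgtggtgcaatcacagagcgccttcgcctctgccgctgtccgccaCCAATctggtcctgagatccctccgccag
Idi1, isoprenoid isomerase, chr13:8885486-8885605, plus strand, CCAAT: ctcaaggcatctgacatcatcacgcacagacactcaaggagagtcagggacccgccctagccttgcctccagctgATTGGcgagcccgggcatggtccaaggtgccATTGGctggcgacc
Ccdc113, ciliary protein, chr8:95533980-95534099, plus strand, RFX: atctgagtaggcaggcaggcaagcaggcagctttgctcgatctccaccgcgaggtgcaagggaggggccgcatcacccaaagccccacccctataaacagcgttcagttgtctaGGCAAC
Fam183b, ciliated cell gene, chr11:58801961-58802080, minus strand, RFX: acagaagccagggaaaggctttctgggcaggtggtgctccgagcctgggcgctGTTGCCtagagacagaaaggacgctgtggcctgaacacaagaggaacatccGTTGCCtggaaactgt
The expression of these 8 genes differed between days by -1.18 (Mcm6), -1.47 (Dtl), -1.31 (Ncapg), -1.05 (Kif11), -1.12 (Cyp51), -0.81 (Idi1), 1.51 (Ccdc113) and 1.77 (Fam183b). A match of letters is a description of the promoter, and neither binding nor its part in the day difference was measured.

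Most listed matrix and vessel genes rose. Of 18 elastic fibre genes 12 were called higher and 2 lower (median 0.58), with Eln, the tropoelastin gene, at 11.20, 11.16 and 11.19 at GD17 and at 12.99, 12.83 and 12.88 at GD18 (1.72, SE 0.12, adjusted p = 7.2e-08). Fbln5, which links elastin to cells, rose by 1.15 (SE 0.11, adjusted p = 8.4e-07) and Ltbp2 by 1.34 (SE 0.12, adjusted p = 5.8e-07). Of 28 collagen genes 18 were called higher and 1 lower (median 0.45). The rises were led by the beaded filament chains Col6a1 (0.97), Col6a2 (0.80) and Col6a3 (1.12) and by basement membrane chains, of which Col4a2 rose by 0.98 and Col4a4 by 1.37, all with an adjusted p of 1.2e-06 or less. The fibrillar chain Col1a1 rose by 0.29 and the cartilage chain Col11a1 fell by 0.90. Col11a1 was not called without 17 f 2 and 17 f 3 (-0.80). Of 29 endothelial and vessel growth genes 19 were called higher and none lower (median 0.49). Vegfa, the growth factor itself, which is made largely by the alveolar epithelium, rose from 9.62, 9.61 and 9.52 to 10.99, 10.67 and 10.71 (1.21, SE 0.10, adjusted p = 2.9e-07), its co-receptor Nrp1 by 0.72 and the angiotensin-converting enzyme Ace by 0.93. Of 14 genes of the lipofibroblast list 7 were called higher and 1 lower, or 5 and 1 without 17 f 2 and 17 f 3. Cd36, a fatty acid transporter that endothelium also expresses, rose by 1.92 (SE 0.18, adjusted p = 6.8e-07), while Pth1r, the receptor for parathyroid hormone-related protein, fell by 0.83 (SE 0.08, adjusted p = 7.9e-07) and Pparg differed by 0.00 (SE 0.09, adjusted p = 0.98).

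Of 27 genes of the glucocorticoid pathway, which include the receptor, the enzymes that make or remove its ligand and known targets, 16 were called higher and 3 lower (median 0.57). Zbtb16, a zinc finger repressor, was at 8.84, 8.85 and 8.74 at GD17 and at 11.10, 10.86 and 10.87 at GD18 (2.13, SE 0.20, adjusted p = 7.0e-07), Klf9 at 9.17, 9.09 and 9.17 and then at 11.08, 10.77 and 10.63, and Pdk4, which restrains pyruvate oxidation, rose by 1.81 (SE 0.19, adjusted p = 1.5e-06). Hsd11b1, the enzyme that regenerates active corticosterone, rose from 9.28, 8.99 and 8.91 to 11.16, 10.99 and 11.08 (2.02, SE 0.18, adjusted p = 4.6e-07), Hsd11b2, which inactivates it, fell by 0.56 (SE 0.07, adjusted p = 9.6e-06), and the receptor gene Nr3c1 rose by 0.60 (SE 0.07, adjusted p = 5.4e-06). The list was not uniform, since Cdkn1c (-0.51) and Angptl4 (-0.50) fell and Mt2, a metallothionein among the genes set aside, was not called (-1.46, adjusted p = 0.099). Fkbp5, a co-chaperone of the receptor, rose by 0.37 (SE 0.10, adjusted p = 0.0077) but was not called without 17 f 2 and 17 f 3. Of 17 genes of the circadian clock, 13 were called higher and none lower, with Per3 at 6.51, 6.61 and 6.56 and then at 7.76, 7.66 and 7.73 (1.15, SE 0.08, adjusted p = 7.2e-08) and Per1, which glucocorticoid also induces, up by 1.01. The hour of harvest of either day is not given in the sources used here, so it cannot be told apart from the day. Of 23 immediate early genes, 15 were called higher and 2 lower. Ier3 rose by 2.15 (SE 0.14, adjusted p = 6.7e-08) and Fos by 1.00 (SE 0.11, adjusted p = 2.1e-06), while Myc fell from 8.70, 8.61 and 8.53 to 7.37, 7.50 and 7.55 (-1.14, SE 0.11, adjusted p = 6.3e-07) and Nr4a2 by 0.34. Without 17 f 2 and 17 f 3 the counts were 10 and 1, and Nr4a2 was not called. In the hedgehog pathway, the ligand gene Shh (0.46) and the ligand-binding Hhip (1.27, SE 0.11, adjusted p = 3.5e-07) rose. The signal transducer Smo (-0.66) and the transcription factors Gli1 (-0.84, SE 0.11, adjusted p = 1.2e-05) and Gli3 (-0.61) fell. Of 15 measured genes 3 were called higher and 5 lower, against 17.2% and 22.5% of all genes, and no result about the pathway is read from these counts. Without 17 f 2 and 17 f 3 these were 2 and 3, and Smo was not called (-0.63).

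The same day difference was fitted in the vehicle males, to ask whether it differed between the sexes. In males 3220 genes (17.7%) were called higher and 2263 (12.4%) lower. Of the genes called in females, 2333 were also called higher and 1976 also called lower in males, and 53 were called in opposite directions. Sftpd rose by 3.95 in males against 4.13 in females, Scgb1a1 by 4.93 against 4.82 and Aqp5 by 2.54 against 2.64. None of the 4 surfactant protein, 24 type II, 23 type I, 16 club or 21 ciliated cell genes had a called difference between the sexes. Female and male medians were 1.47 and 1.16 for type I, 1.46 and 1.42 for type II, 1.01 and 1.04 for club and 0.92 and 0.95 for ciliated cell genes. The absence of a call does not show that the sexes were equal. The difference of the day differences, female minus male, was called above 0 in 161 genes (0.885%) and below 0 in 707 (3.89%). Of the 707, 641 were called lower in females, 374 of them without a call in males.

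**Figure D4:**
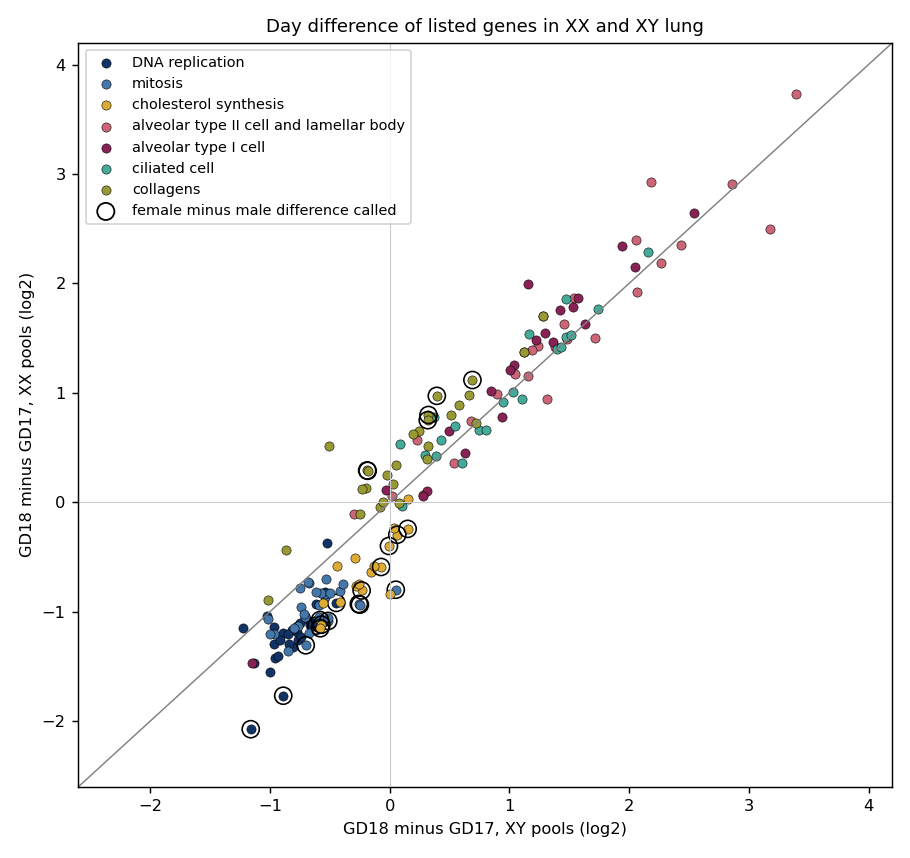
Difference GD18 minus GD17 (log2) in XY pools (horizontal axis) and in XX pools (vertical axis) for the measured genes of 7 lists, each point a gene and the grey line equality. Open circles mark genes whose female minus male difference was called. Type I, type II and ciliated cell genes carry no circles and lie on both sides of the line, with 6 of 23, 8 of 24 and 8 of 21 below it. Replication, mitosis and cholesterol genes lie mostly below it.

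The genes with a larger fall in females included some of cholesterol synthesis and of proliferation. Whether the list counts of this paragraph hold without 17 f 2 and 17 f 3 was not tested. Of 19 cholesterol genes, 17 were called lower in females and 6 in males, with medians of -0.59 and -0.16. In 7 of them the difference between the sexes was called, always below 0. Means over this list at GD17 were 8.83, 9.01 and 9.06 in females and 8.79, 8.77 and 8.84 in males. At GD18 they were 8.32, 8.465 and 8.35 in females and 8.69, 8.62 and 8.57 in males. Idi1 fell by 0.81 in females and differed by -0.23 in males (difference of differences -0.57, adjusted p = 0.0087), and Fdft1, the squalene synthase, by -0.59 and -0.07 (-0.52, adjusted p = 0.02). All 31 replication genes were called lower in both sexes, with medians of -1.17 and -0.81, and 4 differed between them: Gins1 (-0.88, adjusted p = 0.0031), Lig1, Cdc6 and Orc6. Of 30 mitosis genes, 27 were called lower in males (median -0.61), and 6 differed, among them the proliferation marker Mki67, which was at 10.89, 10.60 and 10.70 and then at 9.84, 10.10 and 9.85 in females (-0.80, SE 0.12, adjusted p = 4.1e-05) and differed by 0.05 in males (adjusted p = 0.81). Collagens went the other way, with 18 called higher in females and 11 in males and 6 called above 0 in the difference, among them Col6a1 (0.58, adjusted p = 0.0014). Eln rose by 1.72 in females and 1.02 in males (0.69, adjusted p = 0.02), Hhip by 1.27 and 0.61, and Gli1 fell by 0.84 while it differed by -0.25 in males. Means over the collagen list were 9.10, 9.12 and 9.13 in females against 9.32, 9.30 and 9.17 in males at GD17, and 9.60, 9.63 and 9.50 against 9.37, 9.45 and 9.43 at GD18, so that females lay below males on the first day and above them on the second.

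**Figure D5:**
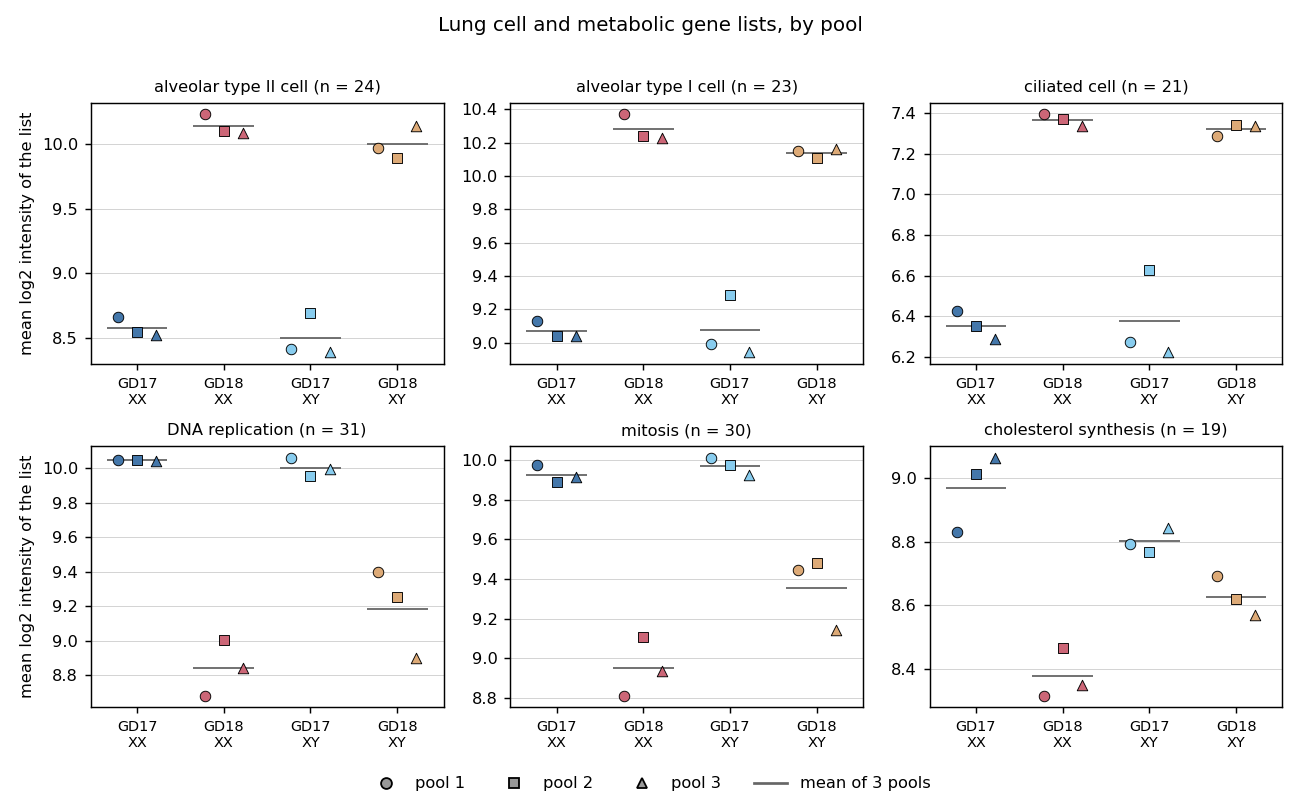
Mean log2 intensity over the measured genes of 6 lists (vertical axis, each panel with its own range) in the 12 vehicle pools, with the symbol giving the pool number and the grey line the mean of 3 pools. The days do not overlap in any panel for XX pools. For replication the XX pools of GD18 lie at 8.68 to 9.01 and the XY pools at 8.90 to 9.40.

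The comparison between the sexes rests on single pools to a greater degree than the day difference does. With 17 f 2 and 17 f 3 left out together, 52 genes were called above 0 and 48 below, with 17 m 3 and 18 m 3 left out 369 and 1253, and with all 4 left out 131 and 208. Leaving out 18 f 1 alone gave 90 and 276, and leaving out 18 m 3 alone gave 251 and 1394. Pool 18 m 3 was high in liver genes (10.74, against 7.91 and 7.51 in the other pools of its group), and its Gapdh probe sets differed between the 5′ and 3′ ends of the RNA by -0.39, against 0.16 to 0.24 in the other 11 vehicle pools. The part of these pools in the difference between the sexes was not tested beyond these counts.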

How the data were processed

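Lung RNA of fetal mice was measured on Affymetrix whole-genome mouse arrays, 18 in all, with 3 pools in each of 6 groups of day, sex and treatment. The intensity values that the authors deposited are on a linear scale and were made by robust multi-array averaging (RMA) of all arrays, which subtracts background, makes the arrays share 1 distribution and summarises the probes of a set. Such a shared distribution removes any change in total RNA and compresses differences near background and saturation. The scanner files were not used here, and the version of limma that the submitters' processing notes name is not given in the sources used here.

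From these values log2 was taken. Of 45101 probe sets, 64 control sets were dropped and 45037 were fitted with limma (version 3.58.1, R 4.3.3), as 6 group means over all 18 arrays with 12 residual degrees of freedom, empirical Bayes moderation and Benjamini-Hochberg adjustment over all probe sets at 0.05. The 3 arrays in a group limit the precision. The flutamide-treated groups inform only the spread. The female minus male difference was a contrast of the same model, and the female and male day differences share no array. Probe sets were named from the platform's annotation: 34945 had 1 symbol, 932 several and 9160 none. Only those with 1 were used, and 0 symbols needed updating. Each of 18193 genes was represented by its probe set of highest mean. In 102 of 4256 called genes with several probe sets, another was called the opposite way. Listed genes without a match were not analysed here. Promoters came from RefSeq (GRCm38.p6).

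The members and lists were chosen with earlier results of these data known, and 4 lists (ribosome biogenesis, serine, asparagine and polyamine synthesis, nucleotide synthesis, and inhibitors of cyclin-dependent kinases) were added after the values were seen. Named genes are the 15 with the largest called differences each way whose days do not overlap and that were not set aside, up to 6 of smallest p in each list, the surfactant protein genes, and the 10 largest female minus male differences each way. Outside that rule, chosen after their values were seen, are Angptl4, Bpifb1, Cckar, Cd74, Cdkn1a, Cftr, Col11a1, Col1a1, Cyp2b10, Dtl, Etv5, Fads1, Fasn, Fkbp5, Foxa2, Foxj1, Hsd11b2, Kif11, Mcm6, Mki67, Mt2, Nkx2-1, Nr3c1, Nr4a2, Orc6, Pdpn, Pgap1, Pnliprp1, Pparg, Rtkn2, Scd1, Scnn1b, Sox2 and Srebf2. Pools with the same number did not deviate together (correlations of 0.05, 0.01 and -0.06), so they were not treated as pairs, and no 2 arrays held identical values. Alternatives were other scalings, leaving out dim probe sets, weighting of arrays, a trended and robust prior, a replicate block, other thresholds, fewer arrays and each pool left out in turn.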

Additional observations from a re-analysis of the deposited data

Results flagged for a closer look

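In 20 genes the day difference stood out as different between females and males in the test of the difference itself, as the 10 largest called in each direction. Above 0 (female minus male, log2) were Evi2a (1.54), Gm16386 (1.42), Hmbox1 (1.35), B230216N24Rik (1.32), 2310067E19Rik (1.29), Usp8 (1.25), Zfp207 (1.16), Zfp945 (1.11), Scmh1 (1.10) and Zbed6 (1.10). Hmbox1, a homeobox gene, differed between days by 1.16 in females and -0.18 in males, and Usp8, a deubiquitinase gene, by 1.09 and -0.16. All 10 of the genes above 0 had other probe sets, 17 in all, of which 4 in 3 genes were called for the difference between the sexes. Hmbox1 and Usp8 were not among these 3 genes. The 2 other Hmbox1 probe sets differed between days by 0.38 and 0.39 in females and by 0.44 and 0.25 in males. The other Usp8 probe set differed by 0.24 in females and -0.03 in males.

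Below 0 were Camp (-1.95), Kel (-1.73), AI662270 (-1.60), Alad (-1.18), Gadd45a (-1.04), Trim10 (-1.01), H2-T24 (-1.0), Dscc1 (-1.0), Crabp2 (-0.94) and Sowaha (-0.94). Camp, the cathelicidin of neutrophil granules, differed between days by -0.58 in females and 1.37 in males. Kel, a blood group gene of red cell precursors, differed by -1.48 and 0.25, and Alad, of haem synthesis, by -0.51 and 0.68. The neutrophil list had means of 6.0, 7.09 and 6.99 in the GD17 female pools and of 7.59 in 18 m 3 against 6.61 and 6.56 in the other GD18 male pools, and the erythroid list stood at 8.51 in 18 m 3 against 7.63 and 7.69. The part of these cells in the differences was not tested. Dscc1 fell in both sexes, by 2.18 in females and by 1.18 in males.

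Without 17 f 2 and 17 f 3, none of the 10 genes below 0 was still called, among them Camp (-1.17), Kel (-1.13), Alad (-1.06) and Dscc1 (-0.95), while 8 of the 10 above 0 were. With 17 m 3 and 18 m 3 left out as well, 3 of the 10 below 0 and 10 of the 10 above 0 were called, and with only 17 m 3 and 18 m 3 left out all 20 were.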

How the results depend on the processing

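No called gene among those followed changed sign, but some lists and balances did. With 17 f 2 and 17 f 3 left out, the neutrophil list went from 1 gene higher and 3 lower (median -0.11) to 2 and 0 (0.21), the squamous median went from -0.10 to 0.36, and the excess of female minus male calls below 0 was gone. With 17 f 2 and 17 f 3 left out together, the female day difference gave 2016 genes higher and 2517 lower, and asking for a difference of at least 1 gave 381 and 370. Leaving out each pool in turn gave 2570 to 2879 higher and 3456 to 3986 lower. The replicate block gave 3040 higher and 4028 lower, and 139 above and 584 below in the female minus male difference. Of called genes 43.3% were higher, 35.8% after centring each array on its median, 45.3% after a further quantile normalization and 46.8% after cyclic loess.

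The female minus male difference moved more. It gave 1086 genes below 0 after centring, 389 above and 1743 below with array weights, 68 and 134 at an adjusted p under 0.01, 19 and 8 (more above than below) at a size of at least 1, and 99 and 306 with only the 12 vehicle arrays. Without 17 f 2 and 17 f 3 it gave 52 and 48, and in settings chosen after seeing the data 369 and 1253 without 17 m 3 and 18 m 3, and 208 below without all 4. Leaving out each pool in turn gave 90 to 251 above and 276 to 1394 below, the lowest without 18 f 1 and the highest without 18 m 3, with 101 and 361 without 17 f 2, 101 and 290 without 17 f 3, 99 and 403 without 17 m 2, and 390 below without 18 f 3. The cause was not tested.

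The genes set aside numbered 328 with a margin of 0.5 (146 called lower), 113 with a margin of 2 (44) and 87 from the lists alone (33). Cholesterol synthesis had 11 genes called lower without 17 f 2 and 17 f 3. Of 126 called genes followed in females, 88 kept their call under every alternative run, and of 20 in the female minus male difference, 8. Among the 126, 35 lost their call where a difference of at least 1 was asked for. That setting goes by size and also drops small differences with a low adjusted p, such as that of Col6a1 (0.97, limma adjusted p = 7.0e-08).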

Other observations

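Genes of growth metabolism fell with those of replication, in lists added after the values were seen. Of 33 genes of ribosome biogenesis, 32 were called lower and none higher, with a median of -0.77 in females and -0.50 in males, and 11 had a called female minus male difference, all below 0. Nop56, of the small nucleolar ribonucleoproteins, fell from 10.02, 9.96 and 10.03 to 8.32, 8.55 and 8.71 (-1.48, SE 0.10, limma adjusted p = 7.0e-08). Of 16 genes of nucleotide synthesis 15 were called lower, among them Umps, of pyrimidine synthesis (-0.99), and Atic, of purine synthesis (-1.04). Of 14 genes of serine, asparagine and polyamine synthesis 13 were called lower, with Srm, the spermidine synthase, at 10.05, 10.30 and 10.37 and then at 8.45, 8.88 and 8.59. Without 17 f 2 and 17 f 3 the counts were 32, 15 and 11.

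In the signalling lists the counts are to be read against the 17.2% of all genes called higher and the 22.5% called lower, and those of the TGF-beta, BMP and Wnt genes lay near these shares. Of 28 TGF-beta and BMP genes 7 were called higher and 5 lower, or 5 and 2 without 17 f 2 and 17 f 3. The co-receptor Tgfbr3 rose by 1.23 and the ligand Bmp6 by 1.05, while the receptor Bmpr1b fell by 0.68. Of 36 Wnt genes 8 were called higher and 7 lower, or 5 and 4 without these pools, and Rspo2, a secreted amplifier of Wnt signalling, fell from 7.46, 7.43 and 7.37 to 5.96, 6.33 and 6.37. Of 18 FGF genes 9 were called higher and 1 lower, with the receptors Fgfr2 (0.57), Fgfr3 (0.72) and Fgfr4 (0.72) among those that rose. Of 23 genes of the IGF axis and imprinted growth genes 6 were called higher and 4 lower (median 0.02). Among them Igfbp6, a binding protein with preference for IGF-II, rose from 7.76, 7.46 and 7.53 to 10.21, 9.94 and 9.85 (2.41, SE 0.15, limma adjusted p = 6.3e-08), while Igfbp2 and Cdkn1c fell. Of 20 macrophage genes 6 were called higher, among them Mertk, a receptor for the uptake of dead cells (1.41), and Csf1r, the receptor for their growth factor (0.48).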
